A study of Mus musculus with 59 samples.

Results

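Genes of fatty acid uptake, mitochondrial uncoupling and the nuclear receptor PPAR alpha were followed in the left ventricle of mice after myocardial infarction. The members were every probe set assigned to exactly 1 of the genes Cd36, Lpl, Fabp3, Ucp2, Ucp3, Pdk4, Ppara and Angptl4. The array held 12 such probe sets for 7 of the 8 genes, out of 10833 probe sets with 1 gene for 8251 genes, and 10 of the 12 were bright enough to be tested among 8140 probe sets. Ucp2 was not analysed here. Total RNA of 1 piece of ventricle was hybridised to each of 59 single-colour Affymetrix arrays, and the deposited values are intensities on a linear scale. Mice with an infarct gave 18 arrays of the infarct, cut from below the left anterior descending (LAD) artery down to the apex, and 18 of the remote region above that artery. Sham-operated mice gave 18 arrays of the upper region, above the artery, and 5 arrays of the lower region, below it. The times were 1 h, 4 h, 24 h, 48 h, 1 week and 8 weeks, with 3 arrays per group, and 1 sham lower array at each time up to 1 week. No label names a strain, sex, age or genetic change. The sham upper region was the control of both regions, as the labels propose. For the infarct it is another part of the ventricle, and the sham lower arrays match it in position. Each title ends in a number, which some pieces share, for example all 3 infarct and remote arrays of 1 week and of 8 weeks. The labels do not say what it stands for, nor that the arrays of a group come from separate mice, so p-values measure the spread between these arrays. Arrays of a group are listed below in the order of these numbers and called the first, the second and the third.

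The working heart burns mostly fatty acids. Lipoprotein lipase (Lpl) releases them from circulating triglycerides at the vessel wall, and the secreted protein Angptl4 inhibits that lipase. Cd36 carries long-chain fatty acids across the plasma membrane, and the heart-type binding protein Fabp3 carries them through the cytosol of the cardiomyocyte. Uncoupling protein Ucp3 sits in the inner mitochondrial membrane of muscle. Pyruvate dehydrogenase kinase Pdk4 phosphorylates and so slows the pyruvate dehydrogenase complex, which holds back glucose oxidation when fat is burned. PPAR alpha binds DNA with a partner of the RXR family, is activated by fatty acids and switches on many genes of fat oxidation. Pdk4, Ucp3, Cd36, Fabp3, Lpl and Angptl4 are all known targets of PPAR receptors. Angptl4 is also known as a gene induced by fasting and by low oxygen. The site that PPAR and RXR read is a direct repeat of 2 AGGTCA half-sites with 1 base between them.

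Promoter windows of 300 bases, 250 before and 50 after the annotated start, came from RefSeq on GRCm38.p6 and were available for Cd36, Fabp3, Ucp2, Ucp3, Pdk4 and Ppara. They were searched on both strands for the direct repeat, for its half-site AGGTCA and for ACGTG, the core of the hypoxia response element. The full direct repeat was in none of the 6 windows and in 13 of 32851 windows of the table (0.0396%). A half-site was in 2 of the 6 windows, against 5340 of 32851 (16.3%), and ACGTG was in none of the 6, against 6447 of 32851 (19.6%). A match describes these letters in this window and is not a binding site. The upstream 250 bases are shown for the receptor gene itself, for both genes with a half-site and for Pdk4, which changed in both directions, each 5′ to 3′ on its gene's strand with AGGTCA or its reverse complement in capitals. 
Ppara (chr15:85735526-85735775, plus strand): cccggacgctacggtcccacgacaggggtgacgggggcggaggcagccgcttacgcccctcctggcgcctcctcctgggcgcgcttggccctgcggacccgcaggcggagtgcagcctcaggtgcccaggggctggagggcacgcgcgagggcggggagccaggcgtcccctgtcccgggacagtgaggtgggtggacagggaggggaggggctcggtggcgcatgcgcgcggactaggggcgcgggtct
Cd36 (chr5:17835897-17836146, minus strand): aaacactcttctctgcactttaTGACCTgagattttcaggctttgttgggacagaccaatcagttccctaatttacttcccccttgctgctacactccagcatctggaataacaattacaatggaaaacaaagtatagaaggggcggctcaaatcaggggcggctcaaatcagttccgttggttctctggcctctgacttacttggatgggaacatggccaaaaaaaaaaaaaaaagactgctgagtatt
Ucp3 (chr7:100472741-100472990, plus strand): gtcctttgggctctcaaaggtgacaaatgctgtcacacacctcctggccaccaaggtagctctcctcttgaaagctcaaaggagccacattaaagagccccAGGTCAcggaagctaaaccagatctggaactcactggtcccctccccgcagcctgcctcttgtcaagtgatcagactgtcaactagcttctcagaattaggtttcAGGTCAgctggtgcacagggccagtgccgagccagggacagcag
Pdk4 (chr6:5496279-5496528, minus strand): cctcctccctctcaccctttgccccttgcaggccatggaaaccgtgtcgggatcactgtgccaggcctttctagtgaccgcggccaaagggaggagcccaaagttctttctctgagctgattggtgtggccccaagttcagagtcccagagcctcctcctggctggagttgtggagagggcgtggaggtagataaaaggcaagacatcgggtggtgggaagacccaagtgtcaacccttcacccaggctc

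Ucp3 held the half-site at 2 places on its own strand, with first bases 149 and 44 bases before the start, and Cd36 held 1 on the opposite strand, 228 bases before it. Ppara and Pdk4 held neither motif in this window.

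Array medians ran from 156.9 to 214.35, and the lowest correlation between arrays of a group was 0.954. The summed intensity of 19 tested cardiomyocyte markers was 268247 to 300470 in sham upper tissue at 1 week. In the infarct at 1 week the sum was 27526 to 96074, lowest on the third array. Myh6, the main adult mouse myosin heavy chain, was 580.4 there against 8651 and 7877 on the other two. Adipoq, made by fat cells, was 1571 on that array and 1178 on the third remote array of 1 week. It was 3442 and 835.5 on the third and the second infarct array of 8 weeks, and 2658 on the first remote array of 4 h. It was 45.8 to 113.7 on all sham upper arrays and 161.9 to 390.2 on the other infarct and remote arrays of 1 week. Calls of the lead probe sets against sham on the infarct arrays singled out here and on the remote array of 4 h are given with and without them. Without the third remote array of 1 week, the calls against sham of Ppara, Lpl, Cd36, Ucp3 and Angptl4 still passed and that of Pdk4 did not. Up to 48 h the title numbers of sham mice and of mice with an infarct lay in separate ranges, so anything that goes with the numbers cannot be told apart from the operation at those times. In bulk tissue, fewer cells of a type and less RNA per cell cannot be told apart either.

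In the infarct, Ppara was called lower than in sham upper tissue at all 6 times. It was the first member to pass, but 13 of 15 alternative settings ended its 1 h call, and the sham lower array of that time read below all infarct arrays. Its call at 8 weeks ended without the third infarct array. Cd36 and Lpl were called lower from 24 h and Fabp3 from 48 h. All 6 genes other than Angptl4 were at their lowest at 1 week, at 12.4% (Ppara) to 22.8% (Lpl) of the sham mean. Angptl4 rose instead, 9.91-fold at 24 h. Pdk4 was above sham at 24 h and below it at 1 week. Remote from the infarct, Angptl4 rose from 4 h to 1 week, and Cd36, Lpl, Ucp3, Pdk4 and Ppara fell at 1 week. Remote Pdk4 was above sham at 24 h, when the sham mean was 4030 against 12773 at 4 h. The remote Pdk4 mean was 11810 at 24 h and 14071 at 4 h. None of the members passed the test in the remote region at 8 weeks. Changes below are differences of log2(intensity + 45.6) with their standard errors from limma, which understate the change of dim probe sets, and a change is called rising or falling at an adjusted p (Benjamini-Hochberg over all 8140 probe sets) below 0.05. Statements that the arrays of a group lay apart from those of another describe a few arrays and are not a test. The share of all probe sets with such arrays is not given, so they lend no weight to a change that did not pass.

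**Figure D1:**
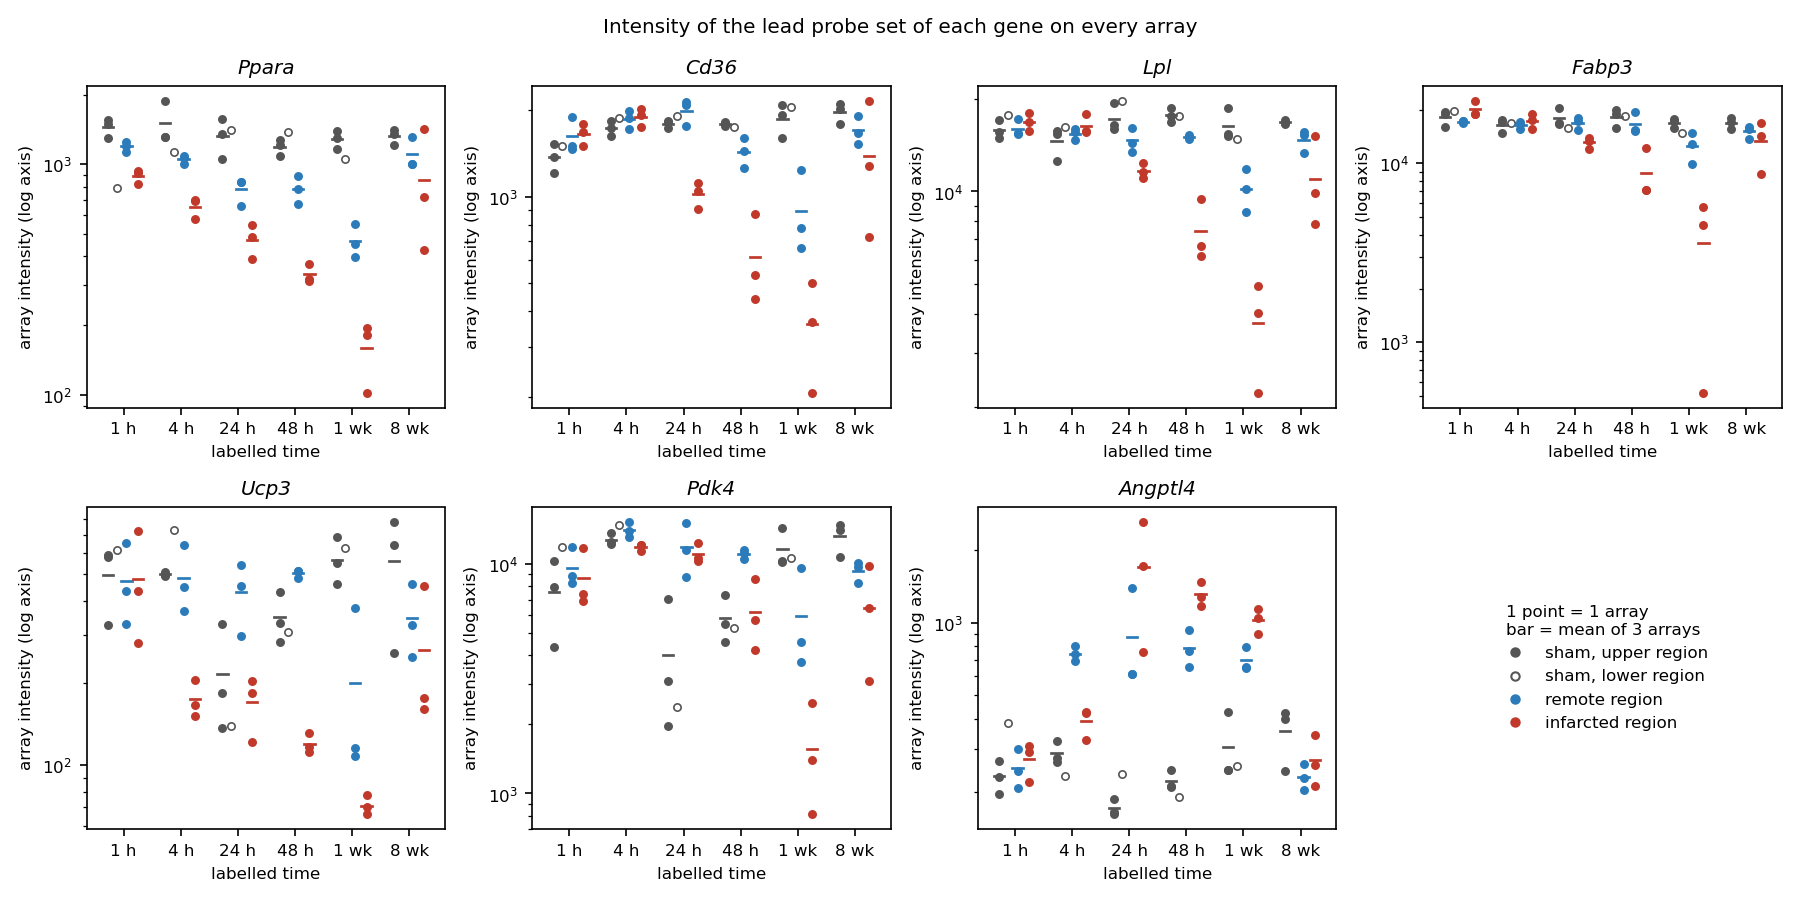
Array intensity (log axis) of the lead probe set of each of the 7 genes against the labelled time, 1 point per array, with the mean of 3 arrays as a bar and the sham lower arrays as open points. The infarct arrays of Ppara lie below all sham upper arrays from 1 h to 1 week, and those of Angptl4 lie above all of them from 4 h to 1 week.

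Counts are of the 10 tested member probe sets, beside the share of all 8140 probe sets called the same way. At 1 h 1 was lower in the infarct than in sham (2.84% of all) and 0 higher (3.5%). At 4 h 2 were lower (6.12%) and 0 higher (5.15%). At 24 h 4 were lower (22.4%) and 3 higher (18.3%), and at 48 h 6 were lower (24.8%) and 2 higher (24.6%). At 1 week 7 were lower (24.3%) and 2 higher (34.1%), and at 8 weeks 5 were lower (8.88%) and 0 higher (11.1%). The infarct changed much of the array, so the background share of calls is large from 24 h on. For remote against sham, 0 passed at 1 h (5.01% of all were higher and 2.32% lower) and 1 was higher at 4 h (1.29%, and 0.319% lower). At 24 h 3 were higher (2.59%) and 1 lower (1.4%), and at 48 h 2 were higher (4.14%) and 0 lower (4.07%). At 1 week 1 was higher (19.6%) and 6 lower (16.1%), and at 8 weeks 0 passed (0.086% higher and 0% lower). Over the 6 times these came to 32 of 60 tests for the infarct and 14 of 60 for the remote region, to be read beside the shares of each time. Lpl enters these counts with 2 probe sets and Angptl4 with 3. Of the 7 lead probe sets, 2 were higher and 3 lower in the infarct at 24 h and 1 and 5 at 48 h. At 1 week 1 was higher and 6 lower, and at 8 weeks 0 and 4. In the remote region 2 were higher and 1 lower at 24 h, 1 and 0 at 48 h and 1 and 5 at 1 week. The median change of the 10 probe sets in the infarct was -0.35 at 24 h, -1.16 at 48 h and -2.29 at 1 week, beside -0.01, -0.05 and 0.11 over all probe sets.

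**Figure D2:**
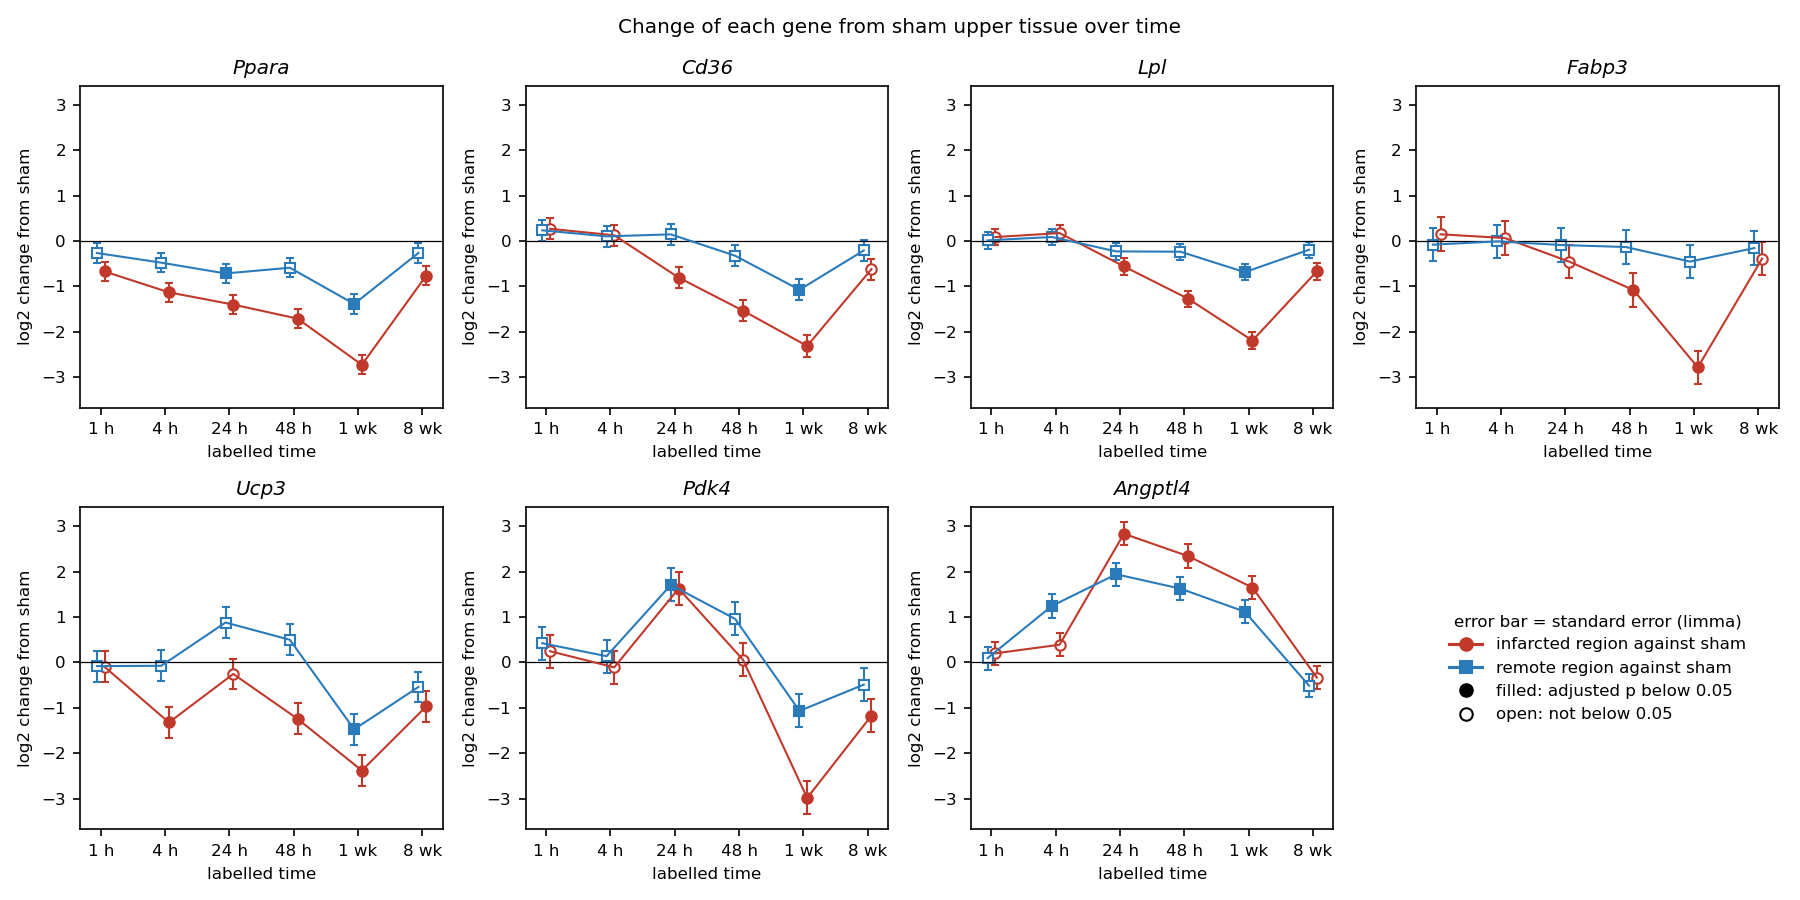
Change from sham upper tissue (difference of log2(intensity + 45.6), with the limma standard error as the bar) against the labelled time for the infarcted (circles) and remote (squares) region, 3 arrays per group; filled symbols passed an adjusted p below 0.05. All genes but Angptl4 reach their lowest infarct value at 1 week, and Pdk4 passes upward at 24 h and downward at 1 week.

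Ppara, which encodes PPAR alpha itself, read 1548, 1494 and 1298 on the 3 sham upper arrays at 1 h and 918, 935 and 820.1 in the infarct. The groups did not overlap and the infarct was lower by 0.67 ± 0.21 (adjusted p = 0.0478), but the sham lower array of that time read 790.5, below all 3 infarct arrays. Against that array alone the infarct was 0.14 higher (adjusted p = 0.997). In all, 13 of 15 alternative settings ended this call, among them each of the 6 that leave out 1 array of either group.

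At 4 h the sham upper arrays of Ppara read 1306, 1887 and 1319 and the infarct arrays 578, 697 and 690.0, a fall of 1.13 ± 0.21 (adjusted p = 0.000253). The sham lower array read 1128, also above the infarct arrays, and against it alone the fall of 0.77 did not pass (adjusted p = 0.237). The fall grew to 1.40 ± 0.21 at 24 h (adjusted p = 9.79e-07) and 1.71 ± 0.21 at 48 h (adjusted p = 1.1e-08), where the infarct arrays read 310.8, 370.1 and 319 against 1086, 1214 and 1271 in sham. At 1 week they read 195, 182 and 102 against 1391, 1302 and 1159, which is 12.4% of the sham mean (fall of 2.72 ± 0.21; adjusted p = 3.19e-14). All groups were apart from 4 h to 1 week, and without the third infarct array of 1 week the Ppara fall was still 2.50 (adjusted p = 4.05e-12).

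Remote Ppara lay between sham and infarct. It read 660.5, 841 and 839 at 24 h, lower than sham by 0.71 ± 0.21 (adjusted p = 0.0456), and 550.1, 397 and 451 at 1 week, a fall of 1.38 ± 0.21 (adjusted p = 2.21e-06). The 24 h call ended under 10 of 15 alternative settings, among them 5 of the 6 that leave out 1 array, and at 48 h the remote change of -0.59 ± 0.21 missed the threshold (adjusted p = 0.0766). The infarct was below the remote region by 0.68 ± 0.20 at 24 h (adjusted p = 0.00823; ended without the first infarct array), 1.12 ± 0.20 at 48 h (adjusted p = 1.15e-05) and 1.34 ± 0.20 at 1 week (adjusted p = 7.12e-07). At 8 weeks the infarct arrays read 1418, 722 and 425, so that the first lay above all 3 sham arrays (1214, 1413 and 1358) and the other two below. The mean was lower by 0.76 ± 0.21 (adjusted p = 0.00936), and without the third infarct array by 0.38 (adjusted p = 0.215). Without the second it was lower by 0.73 (adjusted p = 0.0336).

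Lpl was measured by 2 probe sets, 95611_at and 160083_at, which moved together over the 54 infarct, remote and sham upper arrays (Pearson r = 0.967, a description across arrays that share their groups). On the brighter, 95611_at, sham upper arrays of all times read 12534 to 19403 and the infarct at 1 h and 4 h stayed within 15570 to 18006. At 24 h the infarct arrays read 11082, 11526 and 12399 against 15898, 16419 and 19403 in sham, a fall of 0.56 ± 0.18 (adjusted p = 0.0107); the second probe set fell by 1.00 ± 0.22 (adjusted p = 0.000236). The groups were apart on both, although the 95611_at call ended with quantile normalization (fall of 0.42, adjusted p = 0.0509) and without the third sham array (fall of 0.47, adjusted p = 0.0623).

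At 48 h Lpl (95611_at) read 6648, 6193 and 9424 in the infarct (fall of 1.27 ± 0.18; adjusted p = 1.36e-07). At 1 week it read 4945, 4019.5 and 2218 against 18629, 15325 and 15119 in sham (fall of 2.19 ± 0.18; adjusted p = 1.08e-13), or 22.8% of the sham mean. The second probe set gave 1.49 ± 0.22 and 2.27 ± 0.22 for the same falls (adjusted p = 2.42e-07 and 6.06e-12), and without the third infarct array the 1-week fall of 95611_at was 1.87. The remote arrays read 11814, 10202 and 8568 at 1 week, all below sham, a fall of 0.69 ± 0.18 (adjusted p = 0.0023) and on the second probe set of 0.90 ± 0.22 (adjusted p = 0.000965). The infarct was lower than the remote region by 1.03 ± 0.17 at 48 h (adjusted p = 2.51e-06) and, on the second probe set, 1.37 ± 0.20 at 1 week (adjusted p = 6.55e-07). At 8 weeks the infarct arrays read 15154, 9855 and 7814, against 16557, 17032 and 16719 in sham, a fall of 0.67 ± 0.18 (adjusted p = 0.00701) that without the third infarct array was 0.46 (adjusted p = 0.109). Without the second it was 0.62 (adjusted p = 0.033), and that of the second probe set, 0.67 as reported, no longer passed (adjusted p = 0.0541).

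Angptl4, the inhibitor of that lipase, was the member that rose. On probe set 96119_s_at the sham upper arrays of all times read 160.8 to 426.4. The first call came in the remote region, whose arrays at 4 h read 692, 738 and 797 against 265, 324 and 275 in sham, a rise of 1.24 ± 0.26 (adjusted p = 0.00268; without the first remote array 1.297, adjusted p = 0.0126). The infarct arrays read 424, 328 and 426, higher than sham by 0.39 ± 0.26 without passing (adjusted p = 0.378). Remote and infarct arrays did not overlap at 4 h, but the difference between them, infarct minus remote, of -0.85 ± 0.24 did not pass either (adjusted p = 0.062); it passed when the model held just these 2 groups (adjusted p = 0.0236) and with a fixed block for the title number (adjusted p = 0.019). The sham lower array of 4 h read 231, within the range of sham upper arrays of all times.

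At 24 h the Angptl4 infarct arrays read 1711, 2602 and 757, the remote arrays 612, 1387 and 614 and the sham arrays 161, 164 and 187. The infarct was 9.91-fold the sham mean (rise of 2.83 ± 0.26; adjusted p = 9.66e-12) and the remote region 5.11-fold (rise of 1.94 ± 0.26; adjusted p = 1.87e-06). The infarct exceeded the remote region by 0.89 ± 0.24 (adjusted p = 0.00461) although their arrays overlapped, and without the second infarct array the difference was 0.53 and did not pass (adjusted p = 0.136); nor did it without the first remote array or when the model held just these 2 groups.

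The rise of Angptl4 lasted to 1 week and did not pass at 8 weeks. Infarct arrays read 1473, 1277 and 1172 at 48 h (rise of 2.34 ± 0.26; adjusted p = 7.32e-10) and 900.0, 1141 and 1045 at 1 week (rise of 1.65 ± 0.26; adjusted p = 5.42e-07). Remote arrays read 762, 657 and 929.8 and 794, 646 and 654 at these times, rises of 1.62 ± 0.26 (adjusted p = 4.16e-05) and 1.12 ± 0.26 (adjusted p = 0.000613). In both regions every array lay above all sham upper arrays of its time, and the third infarct array of 1 week lay between the other two. Without that array the 1-week infarct rise was 1.63 (adjusted p = 7.99e-06). At 1 week the infarct exceeded the remote region by 0.53 ± 0.24 without passing (adjusted p = 0.0737), and the difference passed with a fixed block for the title number, which the infarct and remote arrays of that time share (adjusted p = 0.0161). At 8 weeks infarct, remote and sham arrays read 202.4 to 421.3 and overlapped; the infarct change was -0.33 ± 0.26 (adjusted p = 0.381).

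The 3 tested Angptl4 probe sets did not all tell the same. Probe set 102114_f_at followed 96119_s_at (Pearson r = 0.921 over 54 arrays). It rose in the infarct by 3.09 ± 0.37 at 24 h (adjusted p = 7.21e-09), 2.52 ± 0.37 at 48 h (adjusted p = 2.59e-07) and 1.54 ± 0.37 at 1 week (adjusted p = 0.000396). The remote rises were 2.34 ± 0.37 at 24 h and 1.93 ± 0.37 at 48 h (adjusted p = 3.97e-05 and 0.000547). Its remote changes at 4 h, 0.90 ± 0.37 (adjusted p = 0.289), and at 1 week, 0.78 ± 0.37 (adjusted p = 0.0965), did not pass. Probe set 96118_at read 24.2 to 249.9 on all arrays, passed the intensity filter of 108.2 on 44 of 59, correlated with neither (r = -0.211 and -0.207) and passed no test against sham. It was lower in the infarct than in the remote region at 48 h by 0.98 ± 0.38 (adjusted p = 0.0309). The remaining probe set, 161518_r_at, read 4.1 to 72.9 and was not tested. On this array design the suffixes _s_at and _f_at mark probe sets that can match related sequences.

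**Figure D3:**
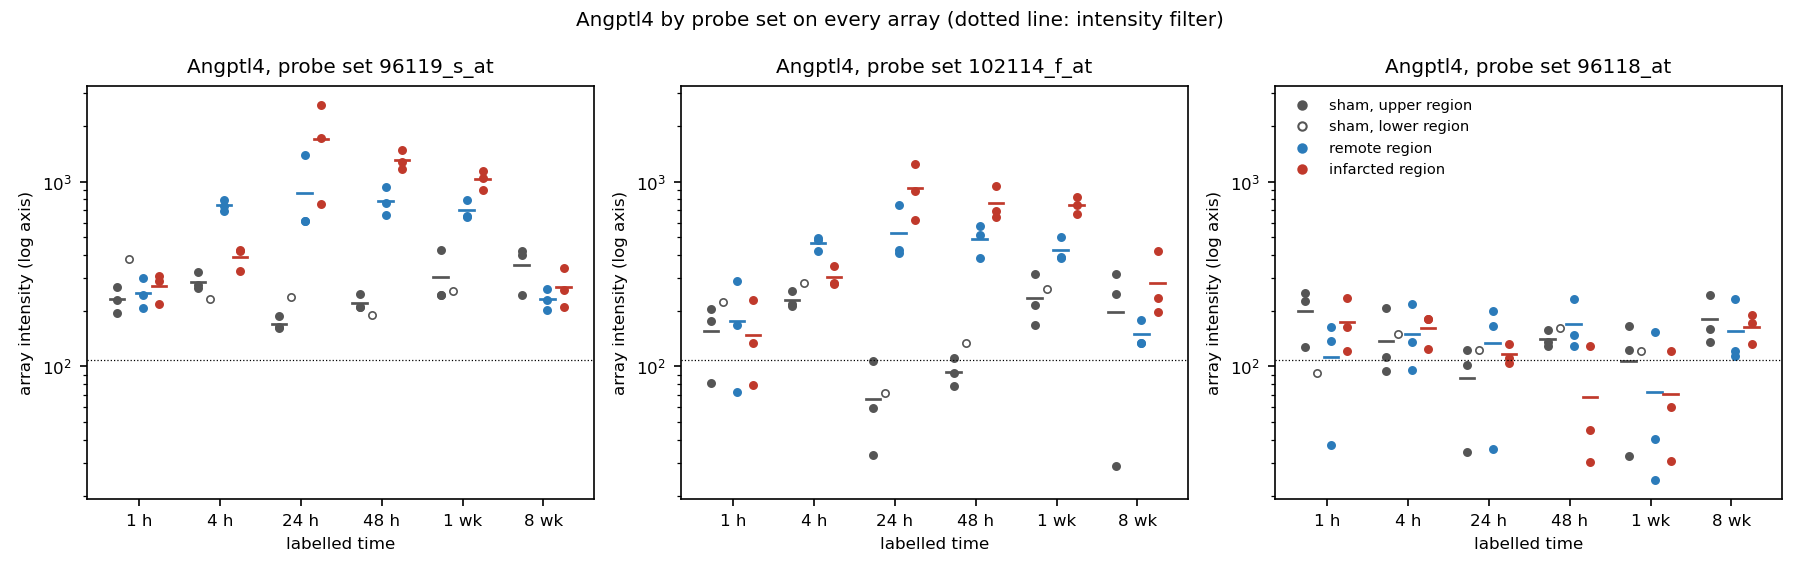
Array intensity (log axis) of the 3 tested Angptl4 probe sets against the labelled time, 1 point per array, with means of 3 arrays as bars and the intensity filter of 108.2 dotted. Probe sets 96119_s_at and 102114_f_at show all remote and infarct arrays above all sham upper arrays of their time from 4 h to 1 week and the highest means in the infarct from 24 h to 1 week, whereas 96118_at stays between 24.2 and 249.9.

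Cd36, the membrane fatty acid transporter, did not pass in the infarct at 1 h or 4 h (changes of 0.27 ± 0.23 and 0.13 ± 0.23). At 24 h the infarct arrays read 1044, 905 and 1114 against 1820.4, 1840.1 and 1738 in sham, a fall of 0.80 ± 0.23 (adjusted p = 0.00479). The remote arrays of that time read 2088, 2133 and 1759.8 and did not pass. The infarct arrays read 441, 536 and 868 at 48 h (fall of 1.53 ± 0.23; adjusted p = 5.5e-07) and 503, 367 and 207 at 1 week against 2088, 1934 and 1602 in sham (fall of 2.31 ± 0.23; adjusted p = 2.39e-11; without the third infarct array 2.01). From 24 h to 1 week all infarct arrays lay below all remote and all sham arrays of their time, by 0.95 ± 0.22, 1.21 ± 0.22 and 1.24 ± 0.22 against the remote region (adjusted p = 0.00096, 1.41e-05 and 1.22e-05).

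Remote Cd36 fell at 1 week, when the arrays read 1235, 664 and 776 (fall of 1.07 ± 0.23; adjusted p = 0.000297). At 8 weeks the infarct arrays read 2164, 1282 and 726 and spread on both sides of the sham arrays (1795, 2021 and 2106). The change of -0.62 ± 0.23 did not pass (adjusted p = 0.0539), and it passed without the first infarct array (fall of 0.98, adjusted p = 0.00127). A second Cd36 probe set, 161704_r_at, read 0.8 to 4.1 on all arrays and was not tested.

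Fabp3, the cytosolic carrier, read 14838 to 20301 on all sham upper arrays. Its fall in the infarct first passed at 48 h. The 24 h infarct arrays, 13376, 13869 and 12043, lay below all sham arrays but the change of -0.45 ± 0.37 did not pass (adjusted p = 0.35). At 48 h the infarct arrays read 7126, 7128 and 12242 against 18787, 19986 and 15755 in sham, a fall of 1.08 ± 0.37 (adjusted p = 0.0142). That call ended with quantile normalization (adjusted p = 0.102) and without the first or the second infarct array (adjusted p = 0.0601 and 0.0585). At 1 week the infarct arrays of Fabp3 read 5712, 4549.9 and 522 against 17619, 17259 and 15868, a fall of 2.78 ± 0.37 (adjusted p = 2.07e-08). Without the third array the fall was 1.74 (adjusted p = 3.69e-10). In the remote region Fabp3 did not pass at any time. At 1 week its remote arrays read 14815, 12783 and 9906, all below all sham arrays, with a change of -0.45 ± 0.37 (adjusted p = 0.37). That standard error comes from the spread within all groups, and so takes in the third infarct array of 1 week. The infarct was below the remote region by 2.33 ± 0.34 then (adjusted p = 7.24e-07), and without the third infarct array by 1.29.

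Ucp3 is a dim probe set, at 66 to 777.4 on all arrays, and its sham arrays varied. At 4 h the sham upper arrays read 510.5, 498 and 494 and the remote arrays 368, 450.0 and 639, while the infarct arrays read 152, 166 and 206. The infarct was thus lower than sham by 1.32 ± 0.34 (adjusted p = 0.00752) and lower than the remote region by 1.25 ± 0.32 (adjusted p = 0.0322), with no overlap in either comparison; the sham lower array read 728. The call against the remote region ended under 7 of 14 alternative settings, among them 5 of the 6 that leave out 1 array. Beside Ppara, Ucp3 was the only member called lower than sham in the infarct at 4 h; the Pdk4 arrays also lay below all sham arrays then, without passing.

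At 24 h the sham level of Ucp3 itself was low, with a mean of 216 ± 100.4 (SD, n = 3). The second sham array lay above the lowest remote and all infarct arrays. Ucp3 read 136.5 and 183.4 on the first and the third sham array, 452, 541 and 298 in the remote region and 204, 184 and 122 in the infarct. Infarct and sham overlapped (-0.25 ± 0.34; adjusted p = 0.592), and the remote region was higher than sham by 0.88 ± 0.34 without passing (adjusted p = 0.147). The infarct was below the remote region by 1.13 ± 0.32 (adjusted p = 0.00647; ended without the second remote array). The infarct fell against sham by 1.24 ± 0.34 at 48 h (adjusted p = 0.00238) and by 2.38 ± 0.34 at 1 week (adjusted p = 9.86e-08; without the third infarct array 2.37), when its arrays read 70, 77.5 and 66, under the intensity filter of 108.2. The remote arrays read 376, 108 and 116 at 1 week, a fall of 1.47 ± 0.34 (adjusted p = 0.00066) in which the first array stood near sham and the other two near the filter. At 8 weeks the infarct was lower by 0.97 ± 0.34 (adjusted p = 0.0389) with overlapping arrays, a call that ended without the second or the third infarct array (adjusted p = 0.161 and 0.196) and without the second or the third sham array.

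Pdk4, the brake on pyruvate dehydrogenase, moved in both directions, and its sham level moved as well. Sham upper means were 7524 ± 2979 (SD, n = 3) at 1 h, 12773 ± 811 at 4 h, 4030.0 ± 2670.0 at 24 h, 5789 ± 1409 at 48 h, 11634 ± 2374 at 1 week and 13196 ± 2166 at 8 weeks. The F test over the 6 sham times passed (F = 8.75, adjusted p = 0.000713), and sham at 24 h was below sham at 8 weeks by 1.89 ± 0.36 (adjusted p = 0.00262; without the first sham array of 24 h by 1.48, adjusted p = 0.0539). The 24 h sham upper arrays of Pdk4 read 1966, 3078 and 7045, and the lower piece that shares the number of the third read 2384.

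Pdk4 in both regions of the infarcted hearts did not share the low 24 h level: the infarct arrays read 10273, 12289.6 and 10640.3 and the remote arrays 11510.0, 15109 and 8810.2. Against sham these were rises of 1.63 ± 0.36 (adjusted p = 0.000349) and 1.71 ± 0.36 (adjusted p = 0.00265), and all arrays of both regions lay above all sham arrays. The remote call ended when the model held just these groups (adjusted p = 0.132). The regions overlapped and the infarct minus remote difference was -0.08 ± 0.35 (adjusted p = 0.889). The infarct mean was 11068 ± 1074 (SD, n = 3) at 24 h and 11841 ± 424 at 4 h, when sham stood at 12773 ± 811. Both regions thus had 24 h means below the sham means of 4 h and 8 weeks.

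At 48 h Pdk4 in the infarct did not pass against sham (change of 0.06 ± 0.36; adjusted p = 0.899) but was below the remote region by 0.90 ± 0.34 (adjusted p = 0.0277), whose arrays read 11214, 11553 and 10481. That last call ended without the first or the second array of either region and with quantile normalization. At 1 week the infarct arrays of Pdk4 read 2484, 1399 and 810.0 against 14376, 10239 and 10288 in sham, a fall of 2.98 ± 0.36 (adjusted p = 2.89e-09; without the third array 2.61, adjusted p = 3.24e-07). The remote arrays read 9576, 3738 and 4552, a fall of 1.06 ± 0.36 (adjusted p = 0.0192) that ended without the second or the third remote array or the first sham array. At 8 weeks the infarct was lower by 1.17 ± 0.36 (adjusted p = 0.0196), and without the third infarct array by 0.73 (adjusted p = 0.22); the call also ended without the second or the third sham array. Without the second infarct array it passed with a fall of 1.23 (adjusted p = 0.0365).

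The change of the infarct effect over time was tested directly. The F test over the 5 steps between neighbouring times passed for 9 of the 10 probe sets, beside 62.6% of all 8140, with the exception of Angptl4 96118_at. For the remote effect it passed for 6 (25.4% of all): Cd36, Ucp3, Pdk4, Ppara and both following Angptl4 probe sets. From 4 h to 24 h the infarct effect rose for Angptl4 (by 2.44 ± 0.36 on 96119_s_at) and Pdk4 (by 1.73 ± 0.51) and fell for Lpl (by 0.73 ± 0.25 on 95611_at and 1.19 ± 0.31 on 160083_at) and Cd36 (by 0.93 ± 0.33), beside 15.6% of all probe sets in either direction. The step of Cd36 ended under 15 of 18 alternative settings and that of Lpl 95611_at under 11 of 18, and that of Pdk4 ended without the first sham array of 24 h. From 48 h to 1 week it fell for Pdk4 by 3.04 ± 0.51 (adjusted p = 3.01e-05), Fabp3 by 1.70 ± 0.52 (adjusted p = 0.0148), Ppara by 1.02 ± 0.30 (adjusted p = 0.0111) and Lpl (95611_at) by 0.92 ± 0.25 (adjusted p = 0.00649). Here 24.7% of all probe sets passed in either direction. Without the third infarct array of 1 week the last 3 of these steps no longer passed (adjusted p = 0.0665, 0.0645 and 0.0581), nor did that of Fabp3 without the third infarct array of 48 h.

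From 1 week to 8 weeks the infarct effect came back towards sham for every gene. The step up was 1.96 ± 0.30 for Ppara, 1.69 ± 0.33 for Cd36, 1.52 ± 0.25 for Lpl, 2.39 ± 0.52 for Fabp3, 1.41 ± 0.48 for Ucp3 and 1.81 ± 0.51 for Pdk4, and the step down for Angptl4 (96119_s_at) was 1.98 ± 0.36. All 7 passed, with adjusted p between 2.5e-06 (Ppara) and 0.0199 (Ucp3), beside 35.1% of all probe sets in either direction. They passed without the third infarct array of 1 week too, with a Fabp3 step of 1.35 in that case. The Ucp3 step ended without the first infarct array of 8 weeks, the first sham array of 1 week or of 8 weeks, and with the larger offset. Among remote effects the same step passed for Ppara (up by 1.12 ± 0.30; adjusted p = 0.0102) and Angptl4 (down by 1.63 ± 0.36; adjusted p = 0.00246), beside 15% of all.

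Within sham upper tissue the F test over time passed for Pdk4, Ucp3 (F = 4.03, adjusted p = 0.0315) and Angptl4 102114_f_at (F = 4.2, adjusted p = 0.0267), beside 19.6% of all probe sets. All 3 had their lowest sham mean at 24 h, and sham Ucp3 at 24 h was below 8 weeks by 1.15 ± 0.34 (adjusted p = 0.0493), as were 2.14% of all probe sets; 8 of 12 alternative settings ended that call. The Ucp3 F test ended without the first or the third sham array of 24 h, and that of Angptl4 102114_f_at without the first or the second. Without the first sham array of 24 h, or without the first of 1 week, Pdk4 was the 1 member probe set that passed. Sham Ppara, Cd36, Lpl and Fabp3 did not pass, with F between 0.05 (Fabp3) and 1.18 (Cd36), nor did Angptl4 96119_s_at (F = 2.88, adjusted p = 0.0919). The sham mean of Angptl4 96119_s_at was also lowest at 24 h. Its limma difference from 8 weeks passed with the smaller offset (adjusted p = 0.0403) and with 1 probe set per gene (adjusted p = 0.0491). It also passed without the first sham array of 8 weeks (adjusted p = 0.0394). Between the lower and upper sham region, in 5 pairs of pieces with the same title number, limma called 0 members and 0 of all 8140 probe sets (0%; 13.9% had an unadjusted p below 0.05, and no member did). The largest difference, lower minus upper, was -0.20 for Pdk4 and for Ppara (adjusted p = 0.741 and 0.495), but Pdk4 was higher in the lower piece in 4 of 5 pairs and Ppara in 1 of 5.

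Set against the remote region of the same operation, the infarct was lower at 4 h for 1 of 10 probe sets (Ucp3; 0.639% of all) and higher for 0 (0.627%), and at 1 h for 0 in either direction (1.76% lower and 2.81% higher). At 24 h 4 were lower (16.3%) and 1, Angptl4, higher (15.1%). At 48 h 8 were lower (22.5%) and 1 higher (23.6%); the 8 were every lead probe set but that of Angptl4, the second of Lpl and the dim Angptl4 96118_at. At 1 week 7 were lower (16.9%) and 0 higher (22.2%), and at 8 weeks 0 passed (2.17% lower and 3.44% higher), which made 22 of 60 tests. At 8 weeks Cd36, both Lpl probe sets, Pdk4 and Ppara passed as lower without the first infarct array. At 48 h the call of Angptl4 ended without the first infarct or the second remote array, and that of 96118_at without the first or the third infarct or the third remote array. At 48 h the call of Fabp3 ended without the first or the second infarct or the third remote array, and at 1 week that of Ucp3 without the first or the third infarct or the first remote array.

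At 1 week the arrays of the infarct fell into the same order for most members as for Myh6. As a share of the sham mean, the first, the second and the third array held 32.5%, 29.6% and 2.18% for Myh6, 33.8%, 26.9% and 3.09% for Fabp3, 30.2%, 24.6% and 13.6% for Lpl and 26.8%, 19.6% and 11% for Cd36. Ppara held 15.2%, 14.2% and 7.95%, Pdk4 21.4%, 12% and 6.96% and Ucp3 12.3%, 13.7% and 11.6%. On the first 2 arrays all 6 held less than Myh6, except for Fabp3 on the first, and on the third array all 6 held more. In the remote region of the same week Myh6 held 83%, 69.7% and 61.6%, with all arrays below all sham arrays. It did not pass (change of -0.49 ± 0.41; adjusted p = 0.382), with a standard error that takes in the spread of the infarct arrays of 1 week. Remote Fabp3 held 87.6%, 75.6% and 58.6%, Lpl 72.2%, 62.4% and 52.4% and Cd36 65.9%, 35.4% and 41.4%. Remote Pdk4 held 82.3%, 32.1% and 39.1%, Ppara 42.8%, 30.9% and 35.1% and Ucp3 66.3%, 19.1% and 20.4%. These shares are set side by side for each gene against its own sham level and their difference was not tested.

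At 8 weeks the infarct arrays held 110%, 65% and 36.8% of the sham mean for Cd36, 107%, 54.3% and 32% for Ppara, 74.2%, 48.7% and 23.3% for Pdk4 and 81.8%, 74.6% and 46.3% for Myh6. The order of the arrays was the same for all 6 members that fell at 1 week. Adipoq read 74.9, 836 and 3442 and Col1a1, the collagen of scar, 2508, 7288 and 11928 on these arrays, in the opposite order; the part of either tissue in the members' values was not tested. The 8-week calls of Lpl, Pdk4, Ppara and Ucp3 against sham all ended without the third array, and also when the model held just the groups compared; the count over all 6 times was then 27 in place of 32 in both cases.

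**Figure D4:**
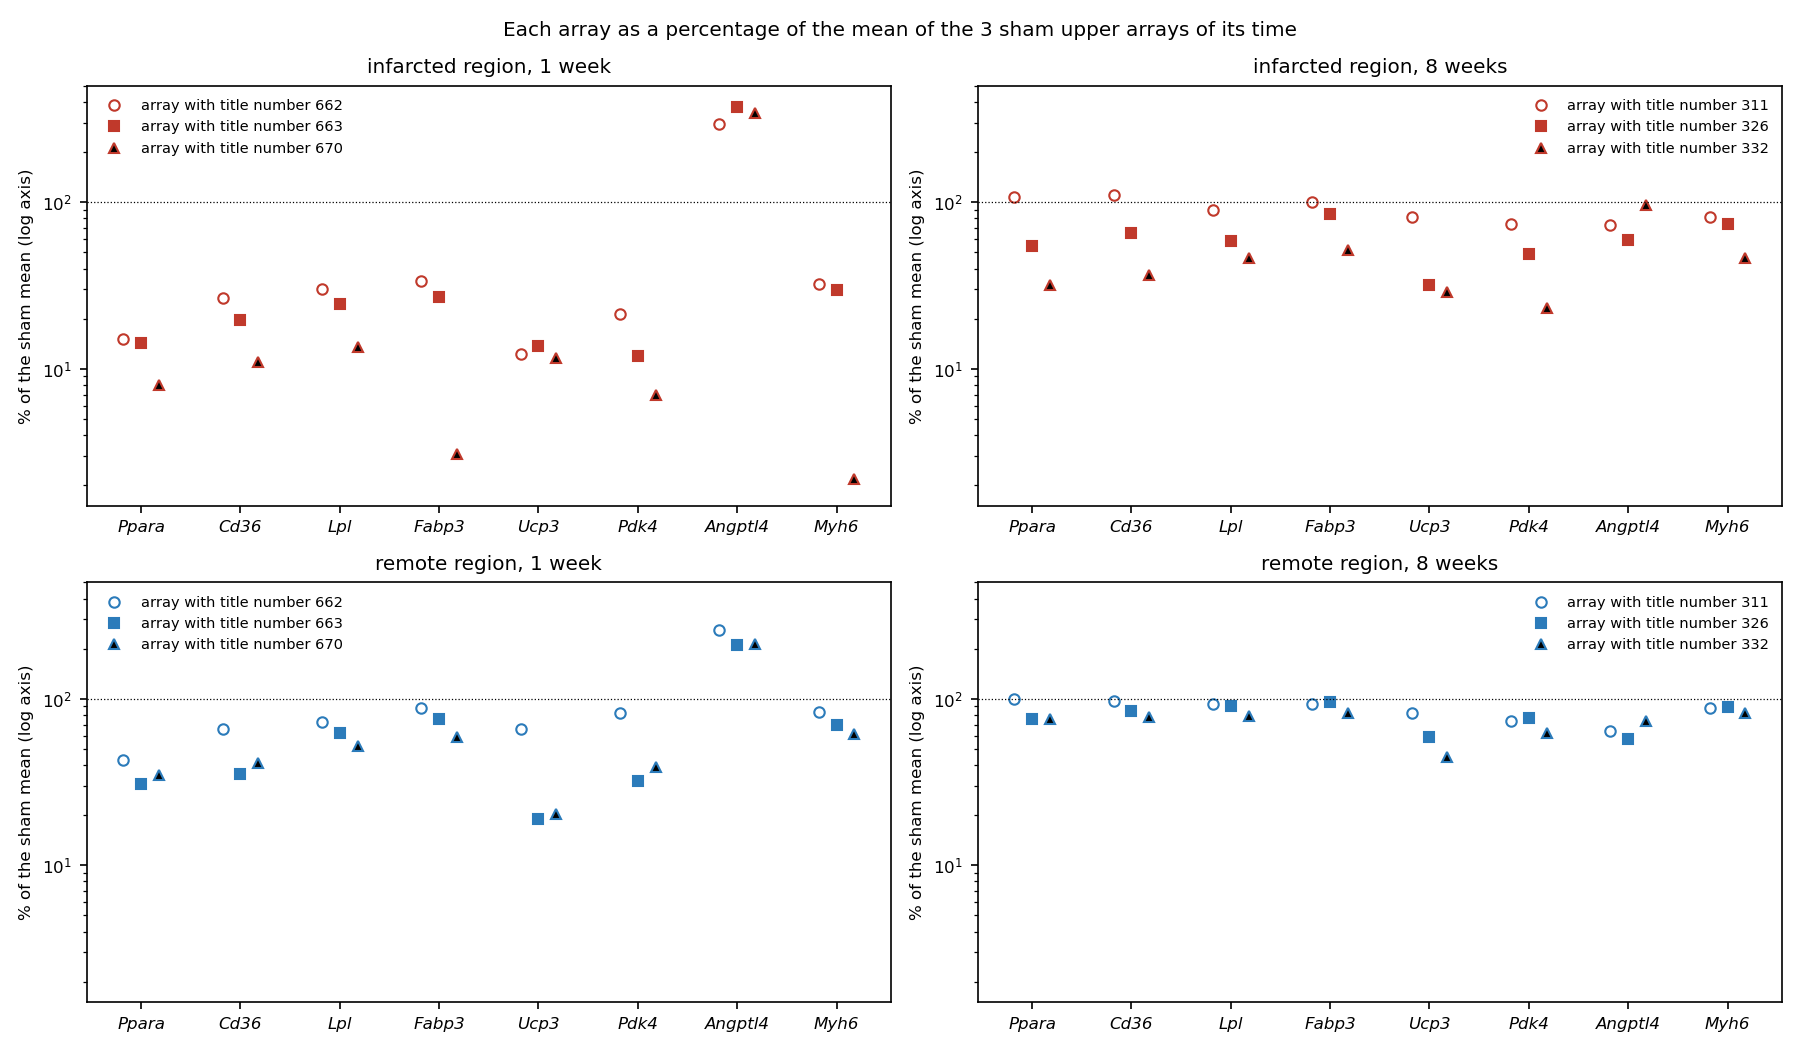
Intensity on each infarct or remote array at 1 week and 8 weeks as a percentage of the mean of the 3 sham upper arrays of that time (log axis; dotted line at 100), for the 7 members' lead probe sets and for Myh6. The third infarct array holds 3.09% for Fabp3 and 2.18% for Myh6 at 1 week, and at 8 weeks the first, the second and the third infarct array follow in falling order for Ppara, Cd36, Lpl, Fabp3, Ucp3 and Pdk4.

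The lists below are counted by lead probe set in the same comparisons, and their counts are read beside the shares of all probe sets given above. For infarct against sham these were 18.3% higher and 22.4% lower at 24 h, 24.6% and 24.8% at 48 h, 34.1% and 24.3% at 1 week and 11.1% and 8.88% at 8 weeks. For remote against sham they were 19.6% higher and 16.1% lower at 1 week and at most 5.01% in either direction at the other times.

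The wider set of known PPAR alpha target genes, 27 tested of 40 listed and with no member among them, moved down in the infarct from 24 h. At 24 h 1 was higher and 13 lower, at 48 h 2 were higher and 19 lower, at 1 week 2 were higher and 23 lower and at 8 weeks 0 were higher and 12 lower. The median changes were -0.57, -0.97, -1.67 and -0.58 beside -0.025, -0.045, 0.111 and -0.005 over all genes tested. The largest falls at 1 week were of Eci1, an enoyl-CoA isomerase (fall of 3.60 ± 0.22; adjusted p = 1.91e-16), and Ech1, a dienoyl-CoA isomerase (fall of 3.25 ± 0.21; adjusted p = 5.79e-16). They were followed by Etfdh, which passes electrons from fat oxidation to the respiratory chain (fall of 2.71 ± 0.27; adjusted p = 1.48e-11), and Hadhb of the trifunctional protein (fall of 2.67 ± 0.20; adjusted p = 9.25e-15). The remote counts were 2 higher and 0 lower at 24 h, 3 higher and 1 lower at 48 h and 2 higher and 18 lower at 1 week (median -0.77 beside 0.052), and 0 passed at 1 h, 4 h and 8 weeks. At 1 h and 4 h 0 of these 27 passed in the infarct.

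Of the receptors that partner or oppose PPAR alpha and their coactivators, 22 tested, 1 was higher and 11 lower at 1 week. Rxrg, a partner receptor, fell by 3.10 ± 0.30 and was at 12 on average in the infarct. Lpin1 fell by 2.74 ± 0.19, the coactivator Ppargc1a by 2.33 ± 0.25 and Esrra by 1.90 ± 0.14 (largest adjusted p = 7.98e-11). At earlier times the counts were 0 higher and 2 lower at 1 h, 1 higher and 3 lower at 4 h, 1 higher and 9 lower at 24 h and 0 higher and 8 lower at 48 h. The remote region had 0 higher and 7 lower at 1 week.

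Around Pdk4, 9 genes of the pyruvate dehydrogenase complex and its regulators were tested. Of these 1 was higher and 7 lower at 48 h and 1 was higher and 8 lower at 1 week. The subunit genes Pdhb and Pdha1 fell by 2.51 ± 0.16 and 2.20 ± 0.14, and Ldhb, a lactate dehydrogenase subunit, fell by 3.11 ± 0.30. Pdk3, another kinase of the complex, rose by 3.03 ± 0.25 from a sham mean of 62.03 to 844.9 (these 4 with adjusted p of 7.02e-12 or less). The remote count was 1 higher and 6 lower at 1 week.

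Genes of fatty acid uptake, binding and lipid storage other than the members, 21 tested, moved both ways: 3 were higher and 10 lower at 24 h, 7 were higher and 10 lower at 1 week and 4 were higher and 5 lower at 8 weeks, and the 1-week median was -0.04. At 1 week Plin4, a lipid droplet coat protein, fell by 2.58 ± 0.22, Gpam, which starts triglyceride synthesis, by 2.40 ± 0.18 and Vldlr, a lipoprotein receptor, by 2.32 ± 0.23, while Acsl4, which activates polyunsaturated fatty acids, rose by 2.30 ± 0.17. Of 9 carriers of the Slc25 family, most of them mitochondrial, other than the members, 2 were higher and 3 lower at 1 week. This was near the shares of all probe sets at that time (34.1% higher and 24.3% lower). The oxoglutarate carrier Slc25a11 fell most, from a sham mean of 8828 to 1073 in the infarct (adjusted p = 3.22e-15). The acylcarnitine carrier Slc25a20 fell by 2.56 ± 0.21 and the ATP/ADP carrier Slc25a4 by 1.68 ± 0.12, and Slc25a17 was among those that rose (by 0.99 ± 0.28).

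Angptl4 is known to answer low oxygen and stress hormones, and 2 lists were set beside it. Of 21 hypoxia-responsive genes, 4 were higher and 0 lower in the infarct at 4 h, 11 were higher and 4 lower at 24 h and 8 were higher and 4 lower at 48 h. The remote counts at these times were 3 higher and 0 lower, 2 higher and 1 lower and 2 higher and 0 lower. At 24 h in the infarct heme oxygenase Hmox1 rose by 3.36 ± 0.20, the glucose transporter Slc2a1 by 2.82 ± 0.27, adrenomedullin Adm by 2.51 ± 0.23 and Pfkp by 1.79 ± 0.25. Of 19 genes known to answer glucocorticoids or fasting, 10 were higher and 3 lower in the infarct at 24 h and 9 were higher and 5 lower at 48 h. The remote counts were 6 higher and 1 lower at 24 h and 6 higher and 2 lower at 48 h. Those that moved most at 48 h in the infarct were Mt2 (rise of 2.83 ± 0.24), Lcn2 (rise of 2.74 ± 0.30), Cdkn1a (rise of 2.37 ± 0.22) and Fkbp5 (rise of 1.66 ± 0.23). Lcn2 is also a neutrophil gene and stands in that marker list too. Whether either response had a part in the rise of Angptl4 was not tested.

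**Figure D5:**
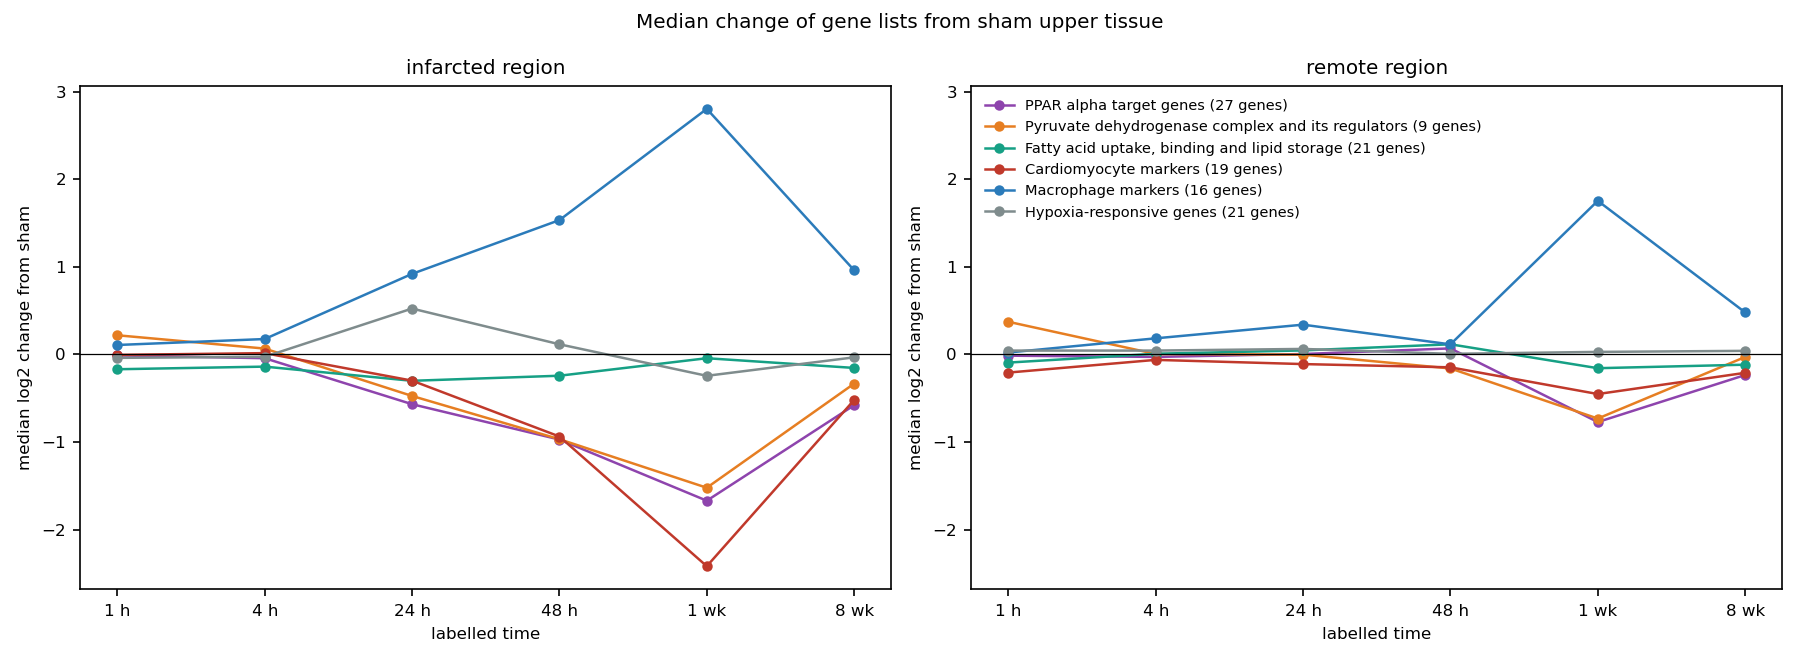
Median log2 change from sham upper tissue of 6 gene lists against the labelled time in the infarcted and the remote region, 1 point per list and time, from group means of 3 arrays. In the infarct the PPAR alpha target genes reach a median of -1.67 and the cardiomyocyte markers -2.42 at 1 week, and in the remote region -0.77 and -0.45.

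Markers of cell types moved with these changes. Of 19 cardiomyocyte markers 1 was higher and 3 lower in the infarct at 24 h, 0 were higher and 16 lower at 48 h, 0 were higher and 18 lower at 1 week and 0 were higher and 3 lower at 8 weeks, with medians of -0.30, -0.94, -2.42 and -0.52. At 1 h and 4 h the medians were -0.01 and 0.01. The calcium-binding Hrc (fall of 4.14 ± 0.22), creatine kinase Ckm (4.00 ± 0.34), Cox7a1 (3.93 ± 0.37) and Myl3 (3.40 ± 0.46) fell most at 1 week. The summed intensity of the list was 27526 to 96074 on the infarct arrays against 268247 to 300470 in sham. In the remote region the list had 0 higher and 1 lower at 48 h and 0 higher and 5 lower at 1 week (median -0.45; sum 177456 to 230853), and 0 of 19 passed at the other times. All 16 macrophage markers were higher in the infarct at 1 week (sum 61516 to 70554 against 8229 to 11490). Lgals3 rose by 5.59 ± 0.49, Mpeg1 by 3.84 ± 0.34, Ctss by 3.72 ± 0.31 and Tyrobp by 3.55 ± 0.38. In the remote region all 16 were higher as well (sum 32893 to 50131). Cd68, another of them, rose in the infarct by 3.48 ± 0.26 and in the remote region by 2.11 ± 0.26.

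Of 12 neutrophil markers 9 were higher and 0 lower in the infarct at 24 h, when Angptl4 was highest (sum 11140 to 22528 against 1306 to 1770). S100a9 rose by 5.31 ± 0.53, S100a8 by 4.86 ± 0.46, Il1r2 by 3.37 ± 0.26 and Mmp9 by 3.20 ± 0.46. In the remote region at 4 h 4 were higher and 0 lower (sum 4220 to 7341 against 1354 to 1698). The remote sums were 5267 to 8336 at 24 h and 5555 to 6863 at 48 h, and the infarct sum at 48 h was 18938 to 19929. At 1 week, when Angptl4 was still called higher in both regions, the sums were 3841 to 5058 in the infarct and 2061 to 3351 in the remote region. Of 15 fibroblast markers 13 were higher and 1 lower in the infarct at 1 week, led by Postn (rise of 4.41 ± 0.28), Col1a2 (3.54 ± 0.32), Mfap5 (3.40 ± 0.21) and Col3a1 (3.14 ± 0.33). The sum was 87834 to 98019 against 26406 to 27955, and in the remote region 12 were higher and 0 lower (sum 84390 to 99283). Of 14 endothelial markers, the cells that display Lpl at the vessel wall, 5 were higher and 4 lower in the infarct at 48 h. The largest changes were those of Aqp1 (fall of 2.17 ± 0.29), Pecam1 (fall of 0.90 ± 0.27), Cldn5 (rise of 1.39 ± 0.18) and Cdh5 (rise of 0.86 ± 0.14), and the sums were 16335 to 18606 against 15012 to 16800. Of 10 adipocyte markers 3 were higher and 2 lower at 1 week (sum 4638 to 7713 against 3141 to 3382). Adipoq rose by 2.48 ± 0.76, Car3 by 2.35 ± 0.86 and Cebpa by 2.06 ± 0.21, and Lipe fell by 1.25 ± 0.20. In mean intensity Cebpa gained most of these, from 551.1 in sham to 2432 in the infarct. Adipoq went from 64.77 to 747.6 and Car3 from 55 to 669.7. The rise of the sum therefore leans on Cebpa and need not stand for fat cells. No marker of these lists was at 0 in any group, although an intensity above 0 need not be above background, and the part of any cell type in the members' changes was not tested.

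The genes whose lead probe sets were most like each member over the 54 infarct, remote and sham upper arrays are given as a description with Pearson's r; the arrays share groups and times, so r reads the course of the whole experiment. For Fabp3 they were the sarcomere genes Myh6 (0.991), Tnni3 (0.988) and Myl3 (0.984). For Lpl they were the mitochondrial genes Nnt (0.98), Ndufb9 (0.98) and Ndufb2 (0.979), and for Cd36 those of electron transfer, Etfa (0.97), Etfdh (0.958) and Cycs (0.953). Ppara was most like Coq9 (0.939), Egln1 (0.937) and Coq10a (0.935), of which the Coq genes belong to coenzyme Q metabolism and Egln1 is an oxygen sensor. Ucp3 was most like Mlycd (0.838), Plin4 (0.827) and Wnk2 (0.824), Pdk4 most like Adgrg1 (0.795), Retreg1 (0.791) and Car4 (0.786), and Angptl4 most like Hmox1 (0.911), Tubb6 (0.897) and Sptlc2 (0.89). Among the members, Cd36 and Lpl were closest (r = 0.937) and Pdk4 and Angptl4 had r = -0.025; Ppara and Angptl4 had r = -0.712.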

How the data were processed

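The deposited values are the authors' processed intensity per probe set and array (59 arrays, 12488 probe sets, linear scale); no header, label or processing note names the tool or the scaling, which are not stated in the sources at hand, so the values were used as deposited. Array medians ran from 156.9 to 214.35. At 1 week they were 156.9 to 164.15 in sham upper tissue, 188.3 to 194.9 in the remote region and 205.8 to 211.6 in the infarct. The arrays were not rescaled for this in the main fit, and quantile normalization was among the alternatives. The number of arrays limits the precision. Gene names came from GEO's platform annotation: 10833 probe sets had 1 gene, 396 several and 1193 none, and 66 were controls; 0 symbols changed when updated through RefSeq's gene table.

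Intensities were taken as log2(intensity + 45.6), the offset being 0.25 times the median of all values (182.4). Testing asked for an intensity of 108.2 or more (40th percentile of the whole table) on 3 or more arrays, which 8140 probe sets of 6672 genes had. limma 3.58.1 in R 4.3.3 fitted 23 groups over 59 arrays in 1 model, with the title number as a random block (consensus correlation 0.1373; 36 residual and 4.514 prior degrees of freedom). Each comparison was adjusted by Benjamini-Hochberg over all 8140 probe sets and called at an adjusted p below 0.05. F tests asked whether an effect differed between the 6 times. Sham lower and upper pieces were compared in the 10 arrays with shared numbers, with the number as a fixed block. The code was tested on simulated data. Figures were drawn with matplotlib 3.10.9 in Python 3.11.15.

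Every member probe set is named whatever its result, and the lead probe set of a gene is the brightest by mean. Of each of 13 gene lists (265 genes, 204 tested), up to 4 genes with the largest called infarct change at the list's time of most calls are named, and Myh6, Adipoq, Cd68, Pecam1, Col1a1 and S100a8 are given as a panel. The members and lists were chosen with earlier results of these data known. Alternatives were another offset, quantile normalization, no filter, 1 probe set per gene, no block, other control samples, a fit of just the groups compared and leaving out each array.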

Additional observations from a re-analysis of the deposited data

Results flagged for a closer look

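The size of the change from sham differed between the 6 times, by limma's F test with Benjamini-Hochberg adjustment, for 15 of 20 member tests. In the infarct these were Angptl4 96119_s_at (adjusted p = 7.96e-10) and 102114_f_at (2.85e-06), Lpl 95611_at (8.56e-10) and 160083_at (2.99e-08), Pdk4 (2.53e-08), Cd36 (3.08e-08), Ppara (1.38e-06), Fabp3 (5.07e-05) and Ucp3 (0.000968). For the remote region they were Angptl4 96119_s_at (1.42e-05) and 102114_f_at (0.0016), Pdk4 (0.000965), Ucp3 (0.00421), Cd36 (0.0171) and Ppara (0.029). The share of all probe sets that passed was 62.6% for the infarct and 25.4% for the remote region. The remote test of Ppara ended without the first or the second sham array, or the second or the third remote array, of 1 week, and that of Cd36 without the first sham or the second remote array of 1 week. No group had the 4 arrays that a check for single outlying arrays needs.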

How the results depend on the processing

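With any one array left out, the count of member tests called was 27 to 34 for infarct against sham (32 as reported), 13 to 15 for remote against sham (14), 18 to 28 for infarct against remote (22), 9 to 9 for the infarct F test (9), 4 to 7 for the remote F test (6), 1 to 4 for the sham F test (3) and 0 to 0 for sham lower against upper (0). Of 4400 single member results under these settings, 108 lost their call and 26 gained one. With quantile normalization 12 of 370 results lost their call and 1 gained one; this setting moved the median infarct change of all probe sets at 1 week by -0.19 and took the share of calls that were higher from 58.3% to 46.9% (remote region by -0.12, from 54.9% to 44.5%). The smaller and the larger offset ended 5 and 2 calls and added 1 and 7. No filter ended 7 and added 0, and a fit of just the groups compared ended 10 of 180 and added 8. Set against the single sham lower array of each time, 8 of 100 results lost their call and 1 reversed: infarct Ppara at 1 h was 0.14 higher. These arrays match the infarct in position but not the remote region, which lies above the artery. Against them the counts were 22 for the infarct and 10 for the remote region over 5 times. The lost calls were those of Ppara at 4 h, Lpl 160083_at at 24 h and Ucp3 and Fabp3 at 48 h in the infarct, and of Ppara at 24 h, Angptl4 102114_f_at at 48 h and Lpl 95611_at and Pdk4 at 1 week in the remote region. The cause of these losses was not tested; a lone control array is assumed to vary like the other groups.

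The title number was checked as a pairing of infarct and remote arrays. In 7 of 17 pairs with a shared number the deviations from the group means correlated above 0.1 (r from -0.106 to 0.412, median 0.036), and 9 arrays correlated best with their own number. All 3 pairs of 1 week were above 0.1 (0.205, 0.239 and 0.412), as were 2 of 3 at 48 h and at 8 weeks, so the check leaves it unsettled whether the number pairs the arrays. The fixed replicate block gave 25 calls for infarct against remote in place of 22: it added those of Angptl4 96119_s_at at 4 h (lower) and 1 week (higher) and of 102114_f_at at 24 h, 48 h and 1 week (higher; adjusted p = 0.0296, 0.0381 and 0.0119), and ended those of Lpl 160083_at at 24 h and Angptl4 96118_at at 48 h (adjusted p = 0.0623 and 0.0657). With no replicate block there were 31, 14 and 21 calls for infarct against sham, remote against sham and infarct against remote. Dim probe sets limit the reading of Ucp3 and Angptl4: Ucp3 reached the filter intensity on 56 of 59 arrays and Angptl4 96118_at on 44.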
